A study of Drosophila melanogaster with 4 samples.

Results

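The regions described here are those that NURF301 chromatin immunoprecipitation marked on 2L, the left arm of chromosome 2 of Drosophila melanogaster. They were taken as every row of the 3 deposited region lists that lies on 2L, which gave 994 rows in ChIP replicate 1, 1117 in ChIP replicate 2 and 1383 in the replicate set's combined list. A combined-list region entered the main set when at least 1 bp of it was also marked in replicate 1 and at least 1 bp in replicate 2. The main set held 899 regions on 2L, of 5069 on all sequences. Chromatin was prepared from wild-type Oregon-R embryos 14 to 16 h old, cross-linked with 1.8% formaldehyde, and ChIP used the NURF301 antibody Q2602. The 4 samples were 2 ChIP libraries and 2 input libraries, all of this 1 strain, stage and genotype. Each input is taken, from the labels' numbers alone, to belong to the ChIP library of the same number. Separate embryo collections are not named in the labels, so the spread between replicates may be technical. Whole embryos mix many cell types, and a region strongly bound in few cells cannot be told apart from one weakly bound in many.

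NURF301 is the large scaffold subunit of the nucleosome remodelling factor NURF. The complex uses the ATPase ISWI to slide nucleosomes along DNA, and NURF301 gives it contacts with sequence-specific transcription factors and with modified histone tails. Its human relative is BPTF. In flies NURF is known for roles in transcription of homeotic and ecdysone-responsive genes and in the structure of the male X chromosome. At the stage sampled the embryo has its body plan and its organs are differentiating.

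Regions are given by position on FlyBase r5, counted from 1, with positions on 2L running from the telomere towards the centromere. Genes at these positions were not analysed here. Each region has a deposited score, read as the log2 ratio of ChIP to input counts after a fixed scaling of each list. On 2L the median region rested on 406.5 ChIP and 221 input counts in replicate 1 and on 523 ChIP and 292 input counts in replicate 2. On the log2 scale, these counts give a median counting error per score of 0.12 for replicate 1 and 0.11 for replicate 2. Counting errors and intervals given here cover counting error only.

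NURF301 regions were frequent along 2L and mostly a few kb wide. Replicate 1 had 43.2 regions per Mb and replicate 2 had 48.5 per Mb, a mean of 45.9 ± 3.78 (SD, n = 2). The regions covered 9.95% of the arm in replicate 1 and 12.1% in replicate 2. Widths on 2L had a median of 2139 bp in replicate 1, against 2233 bp in replicate 2. Scores had a median of 0.66 in replicate 1, against 0.69 in replicate 2, which correspond to 1.58 and 1.61 times the input. A score of 1 stands for 2-fold enrichment, and 116 regions (11.7%) of replicate 1 and 213 (19.1%) of replicate 2 had a score over 1.

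The main set covered 11.5% of 2L with 39.1 regions per Mb. Its regions had a median width of 2575 bp, with the middle of the distribution, from the 25th to the 75th percentile, spanning 2221 bp to 3286 bp. Scores ranged from 0.20 to 1.66 around a median of 0.68. Wider regions tended to score higher, with a Spearman rho of 0.55 over the 899 regions, which share the same libraries. The relation was closer within each replicate list of 2L, with a rho of 0.81 in replicate 1 and 0.78 in replicate 2. Neighbouring regions did not resemble each other in score, with a rho of 0.0061 over 898 adjacent pairs, and the number of other regions within 100 kb had a rho of 0.046 with the score. The 90 highest-scoring main-set regions of 2L had a median width of 3147 bp, and the 90 lowest had 2001 bp.

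The 10 strongest sites of 2L were each a single region in both replicates. They were 2477 to 4559 bp wide, and 9 of the 10 exceeded the arm's median width. The highest lay at 2363172 to 2366704, where the combined score of 1.66 rested on 3094 ChIP and 887 input counts. Replicate 1 gave it 1.67 and replicate 2 gave it 1.71, which average 1.69 ± 0.028 (SD, n = 2). By score it was number 7 among all regions of replicate 1 and 25 among those of replicate 2. Its counting error was 0.055, and the next region stood at 1.51.

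The second site, at 7532594 to 7536770, scored 1.55 in replicate 1 and 1.71 in replicate 2. The third, at 7826038 to 7829844, scored 1.41 in replicate 1 and 1.57 in replicate 2. The fourth lay near the telomeric end, at 413230 to 416468, with 1.40 in replicate 1 and 1.59 in replicate 2. In the combined list they scored 1.51, 1.48 and 1.45 with counting errors of 0.057, 0.052 and 0.064, so neighbours in this order did not differ beyond their errors.

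The other members of the 10 had combined scores between 1.31 and 1.40. They lay at 6721908 to 6725384, 2854482 to 2859040, 8158588 to 8161064, 6454206 to 6457524, 20654990 to 20657668 and 5277156 to 5280236. Of the 10 sites, 9 lay in the first 10 Mb of the arm, which held 49.8% of its main-set regions. Replicate 2 exceeded replicate 1 at each of the 10, by 0.039 to 0.29, in the direction of the general offset between the lists. The first region outside this group, at 11515446 to 11518548, scored 1.30.

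One strong site was stronger in replicate 2 than its combined score shows. At 868740 to 874642 the combined list joined a stretch of 5903 bp with a score of 1.26. Within it, replicate 2 had a single region of 3714 bp with a score of 1.74, the highest of 2L in that list. Replicate 1 had 2 regions there, and the larger one, of 4093 bp, scored 1.38. The difference between these replicate scores was 0.37.

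The widest regions were different places from the strongest. The widest, at 2191184 to 2200956, was 9773 bp wide and scored 0.75. It was a single region of 9708 bp in replicate 2 and 3 separate regions in replicate 1. The second, at 2006352 to 2016068, spanned 9717 bp, also scored 0.75 and was split into 2 regions in each replicate.

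The third widest region, at 2747434 to 2756174, spanned 8741 bp and scored 0.61. The fourth was the first region of the arm, at 15758 to 23936, with 8179 bp and a score of 0.96. It was the only one of the 5 widest to be a single region in both replicates, with scores of 0.97 in replicate 1 and 1.05 in replicate 2. The fifth, at 245626 to 253474, spanned 7849 bp and scored 0.64. All 5 lay in the first 3 Mb of the arm, a count read from the positions after they were known. In the whole main set of 2L, 47 regions (5.23%) were split in at least 1 replicate, and these had a median width of 5083 bp, against 2528 bp for unsplit regions.

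Along the arm, regions were densest at one place near the middle and thinned out towards the centromere. The 46 complete 500-kb windows held a median of 21.5 regions in replicate 1, 24 in replicate 2 and 20 in the main set. The window from 10.0 to 10.5 Mb had the most, with 48 regions in replicate 1, 50 in replicate 2 and 44 in the main set, and 28.4% of it was covered by main-set regions. The telomeric window from 0 to 0.5 Mb came next in the main set, with 32 regions, and held 34 in replicate 1 and 40 in replicate 2. The window from 8.0 to 8.5 Mb had 29 in the main set, 37 in replicate 1 and 39 in replicate 2, so the order behind the first window differed between the lists.

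The sparsest windows had 6 main-set regions each. From 14.5 to 15.0 Mb there were 7 regions in replicate 1 and 9 in replicate 2, and from 22.5 to 23.0 Mb there were 7 in each. The window counts of the replicates rose and fell together, with a Pearson r of 0.96 and a Spearman rho of 0.94 over the 46 windows of the same 2 lists. Replicate 2 had more regions in 38 windows, replicate 1 in 6, and they were equal in 2.

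Median scores varied less along the arm than region numbers did. In the main set they lay between 0.45, in the window from 17.5 to 18.0 Mb, and 0.92, in the window from 22.0 to 22.5 Mb with 11 regions. The high median of that window was 0.86 in replicate 1 and 0.75 in replicate 2. Windows with more regions did not have higher median scores, with a Spearman rho of 0.13 in the main set, -0.10 in replicate 1 and -0.0015 in replicate 2. The replicates also ordered the windows less alike by median score than by number, with a rho of 0.55.

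**Figure D1:**
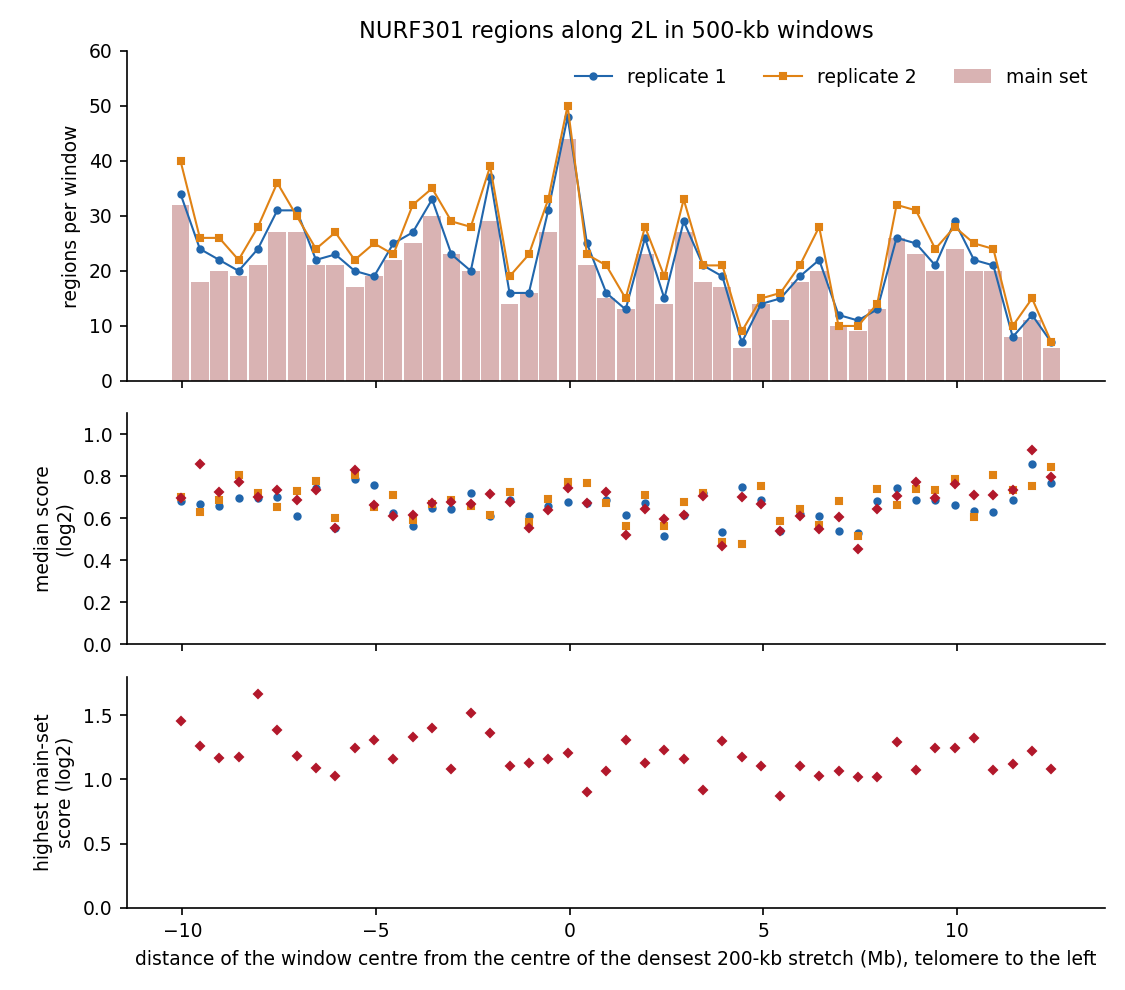
Numbers of regions (top), median score (middle) and highest main-set score (bottom, both log2) in 46 windows of 500 kb along 2L, placed by distance in Mb from the centre of the densest 200-kb stretch. Bars and diamonds are the main set, circles replicate 1 and squares replicate 2. The window at the centre holds 44 main-set regions, and the last window to the right holds 6, while median scores stay between 0.45 and 0.92.

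In blocks of 5 Mb, density fell towards the centromere in both replicates. Replicate 1 had 50.2, 49.4, 43.8 and 35.6 regions per Mb in the first 4 blocks and 32.9 in the last block, which ends with the arm. Replicate 2 had 56.2, 57.2, 48.0, 40.2 and 36.2 per Mb in the same order. The first and last blocks differed by more than the replicates did within any block. The last block was nevertheless not weak, with a median main-set score of 0.75, against 0.66 to 0.71 in the other 4. Its median hardly stood out in replicate 1, at 0.676 against 0.638 to 0.675. In replicate 2 it was 0.765, against 0.658 to 0.713.

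Input counts changed slightly along the arm as well. Within main-set regions they were 225, 227, 231, 232 and 238 per kb in the 5 blocks, so the last block, with the fewest regions per Mb, had the most input reads per kb inside them. The part of input coverage in the fall of density was not tested. The recovery of these counts assumes a typical input density shared by 2L, 2R, 3L and 3R, which limits such comparisons. Strong sites, here the regions at or above the 90th percentile of scores on the large arms (2L, 2R, 3L, 3R and the X), were unevenly placed in the main set. The second block, from 5 to 10 Mb, had 27 of them (12.0% of its regions), the third had 9 (4.55%) and the fourth had 7 (4.27%). The first block had 7.62% and the last 7.87%. The second block had the highest share in replicate 1 (11.3%) and in replicate 2 (10.8%) too. The last block came close to it, with 11.1% in replicate 1 and 9.17% in replicate 2. The lowest share was that of the third block in both replicates, at 3.20% in replicate 1 and 5.00% in replicate 2, and the fourth block had 7.87% in replicate 1 and 5.47% in replicate 2.

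The densest stretch of 200 kb on 2L lay at 10200001 to 10400000 and had the same position in all 3 lists and the main set. It held 31 regions in replicate 1, 33 in replicate 2, 29 in the main set and 35 in the combined list. On the other large arms the fullest stretch of the same width held 22 regions on 3L, 24 on 3R, 28 on 2R and 22 on the X in replicate 1. In replicate 2 the numbers were 24 on 3L, 29 on 3R, 28 on 2R and 27 on the X. The stretch of 2L was thus the fullest of these arms in both replicates, by 3 regions in replicate 1 and 4 in replicate 2.

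Elsewhere on 2L, away from this stretch and its flanks of 200 kb, no stretch of that width held more than 19 main-set regions, and the median over 115 separate stretches was 7. The 200 kb before the stretch held 6 main-set regions and the 200 kb after it held 11. The close spacing went on past the end of the stretch, since 6 of those 11 lay between 10402848 and 10440254. Regions covered 40.0% of the stretch in replicate 1, 47.6% in replicate 2 and 47.4% in the main set. The regions stood a median of 3162 bp apart in the main set, against 9607 bp on the whole arm, and the narrowest space between neighbours was 19 bp. When regions closer than 500 bp were merged, the fullest stretch of 2L held 26.

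Scores in the stretch lay within the range of the rest of the arm, between 0.37 and 1.20. Their main-set median score was 0.76 and the rest of 2L had 0.68, with 17 of the 29 above the arm's median. In replicate 1 the median was 0.75, against 0.65 on the rest of 2L, and in replicate 2 it was 0.78, against 0.69. The strongest site of the stretch ranked 33 on the arm and lay at 10229550 to 10233674. Its combined score was 1.20, and replicate 1 gave 1.08 where replicate 2 gave 1.37. The next, at 10259402 to 10262208, reached 1.19, from 1.23 for replicate 1 and 1.28 for replicate 2. Another, at 10313224 to 10316020, reached 1.03, from 0.92 for replicate 1 and 1.18 for replicate 2. The first and second were within their counting errors of each other (0.049 and 0.069).

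Widths in the stretch ran from 2061 to 6497 bp with a median of 3059 bp, and 19 of the 29 exceeded the arm's median width. The widest, at 10361484 to 10367980, was split into 2 regions in each replicate. Here 31 of 31 regions of replicate 1 met a region of replicate 2, and 30 of 33 the other way, beside 94.3% and 81.9% on all of 2L. Replicate 1 regions covered 40.0% of the stretch and replicate 2 regions 47.6%. An overlap of 1 bp is easier to meet at such coverage, so these counts do not measure agreement particular to the stretch. Input counts inside the regions of the stretch were higher than on the rest of 2L, at 114 against 102 per kb in replicate 1 and 139 against 129 per kb in replicate 2. Their part in the number of regions found was not tested. The same assumption of a shared typical input density limits this comparison.

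**Figure D2:**
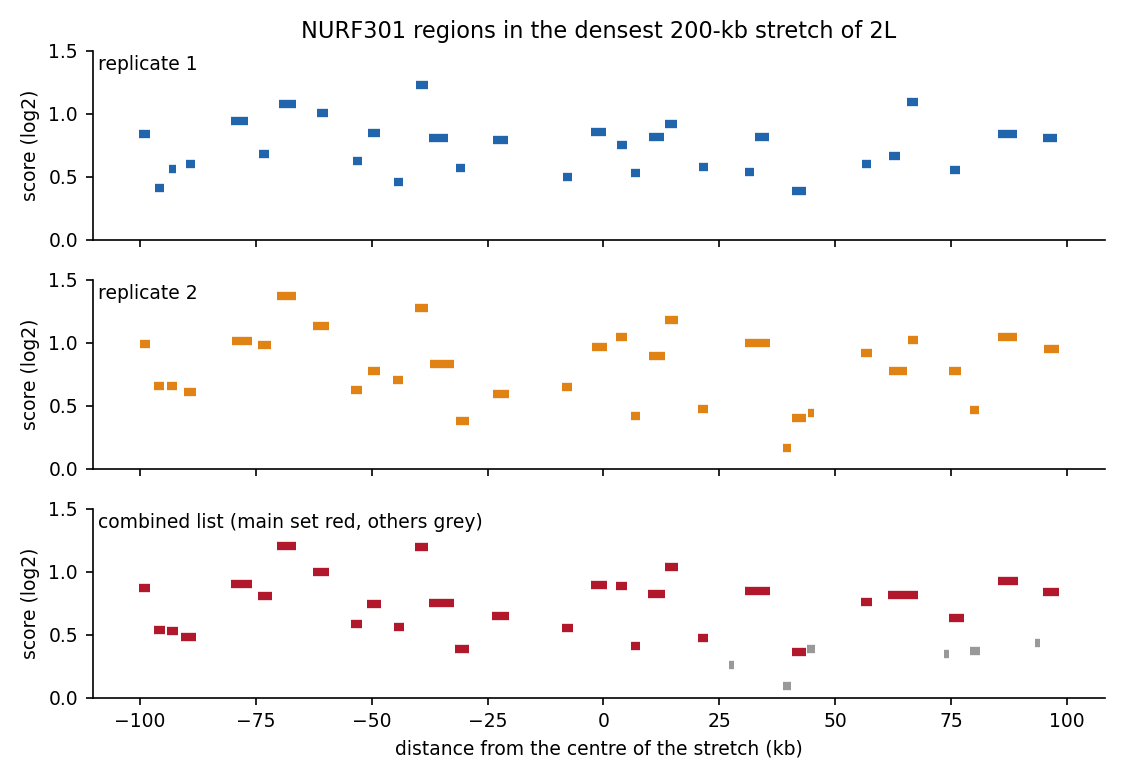
Regions in the densest 200-kb stretch of 2L, drawn to scale as bars at the height of their score (log2), by distance in kb from the centre of the stretch, for replicate 1 (top), replicate 2 (middle) and the combined list (bottom). The same places recur in the 3 panels, with 31, 33 and 35 regions, and scores reach 1.23 in replicate 1 and 1.37 in replicate 2.

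Long stretches of 2L had no main-set region. There were 40 gaps of over 100 kb, together 6.18 Mb or 26.8% of the arm, of which 15 had their midpoint on the telomeric side of the arm's middle and 25 on the centromeric side. The longest, at 16911211 to 17204245, measured 293 kb. No region of either replicate had its midpoint in it, and the combined list had 3, with a highest score of 0.45. The regions on both sides were weak, with scores of 0.40 and 0.37.

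The second longest gap, at 11518549 to 11804241, measured 286 kb and was also free of replicate regions. It began directly after the strong region at 11515446 to 11518548 named above. The fifth, at 22473577 to 22689621, measured 216 kb, held no replicate region and lay between regions with scores of 1.22 and 1.08. The longest gap thus bordered on weak regions, while these others had a region of 1.30 or 1.22 on at least 1 side.

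The third longest gap, at 14363131 to 14587299, measured 224 kb and held 2 regions of replicate 1 and 2 of replicate 2, none of which made up a main-set region. The fourth, at 12723419 to 12941639, measured 218 kb and held 2 regions of replicate 2, the higher with a score of 0.87, and 0 of replicate 1. The main set on 3L had 39 gaps of over 100 kb (25.2% of that arm) and on 3R 38 (18.9%). The longest gap was 293 kb on 2L, 388 kb on 3L and 214 kb on 3R. In the replicate lists the share of 2L in such gaps was 24.2% and 17.3%, against 23.7% and 18.6% on 3L and 16.6% and 12.6% on 3R, so that 2L and 3L differed by less than the replicates of either arm did.

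**Figure D3:**
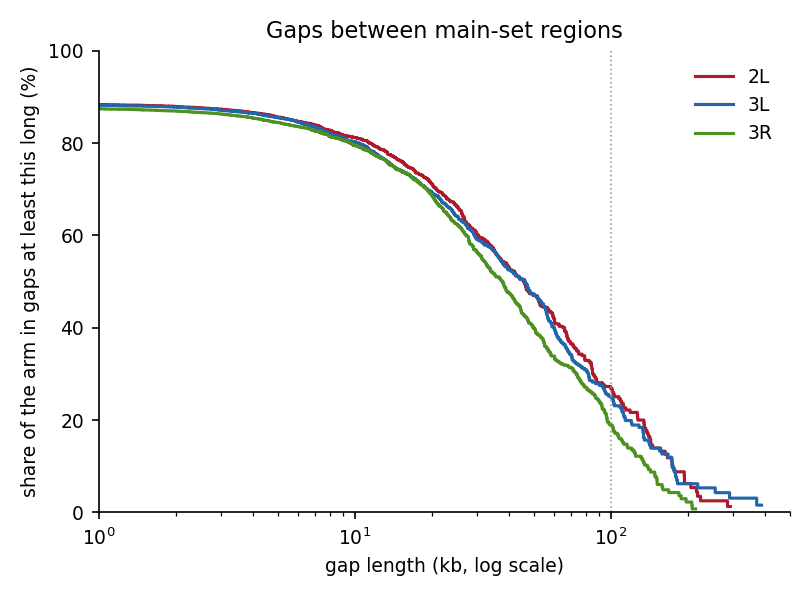
Share of each arm lying in main-set gaps of at least a given length, against gap length in kb on a log axis, for 2L, 3L and 3R. At 100 kb, the dotted line, 2L stands at 26.8%, 3L at 25.2% and 3R at 18.9%.

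The replicates marked the same places of 2L for nearly all strong regions, and differed mainly at weak ones. On 2L, 937 of 994 replicate 1 regions met one of replicate 2, which is 94.3% with a Wilson interval of 92.6% to 95.5%, beside 94.1% over all sequences. In the other direction 915 of 1117 met one of replicate 1, which is 81.9% with an interval of 79.6% to 84.1%, beside 81.2% over all sequences. In the highest quartile of scores, 100% of the replicate 1 regions and 98.9% of the replicate 2 regions of 2L were shared. In the lowest quartile the shares were 88.8% and 50.4%. On 3L the shares over all regions were 95.9% and 82.7%, and on 3R 93.7% and 80.4%.

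Low agreement was not limited to 1 side of the arm. Among 500-kb windows, the share of replicate 2 regions found in replicate 1 was lowest from 14.5 to 15.0 Mb, at 66.7% of 9 regions, and the share of replicate 1 regions found in replicate 2 was lowest from 15.5 to 16.0 Mb, at 80.0% of 15. On the telomeric side, 69.6% of 23 replicate 2 regions were shared from 9.0 to 9.5 Mb, and 81.1% of 37 replicate 1 regions from 8.0 to 8.5 Mb. All regions of replicate 1 were shared in 15 of the 46 windows. The densest window, from 10.0 to 10.5 Mb, had the highest share of combined-list regions present in both replicates, at 78.6% of 56. The window from 13.5 to 14.0 Mb was nearly equal, at 78.3% of 23.

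Scores of the 913 paired regions of 2L followed the same order in both replicates, with a Spearman rho of 0.82 and a Pearson r of 0.85, as descriptions across regions of the same libraries. Replicate 2 was higher by a median of 0.076, or 5.39%, and was higher in 69.3% of pairs. The robust SD of the differences was 0.14, against a median counting error of 0.16. After the overall offset of the lists was removed, 39 pairs (4.27%) lay over 2 counting errors apart, beside 3.91% of all 5115 pairs, so the share on 2L was near the background.

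By size, the largest difference towards replicate 2 was at 206163 to 208606 (its extent in replicate 2), with 1.07 in replicate 2 and 0.57 in replicate 1. The next, at 2764671 to 2771239 in replicate 2, had 1.18 in replicate 2 and 0.70 in replicate 1. In that place the replicate 2 region was 6569 bp wide and the replicate 1 region 3734 bp, so the scores average over different lengths. Towards replicate 1 the largest difference was at 747135 to 749327 (its extent in replicate 1), with 0.78 in replicate 1 and 0.30 in replicate 2. At these 3 places the difference left after the offset was between 2.63 and 3.52 counting errors in size.

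**Figure D4:**
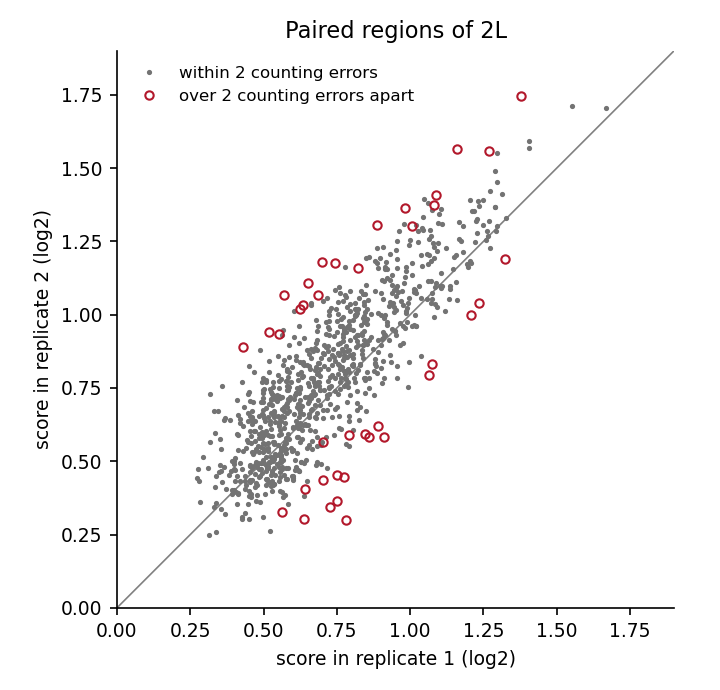
Score of each of the 913 paired regions of 2L in replicate 1 (horizontal, log2) and replicate 2 (vertical, log2), with the line of equal scores. Open circles mark the 39 pairs over 2 counting errors apart after the offset between the lists was removed, and most points lie above the line, as replicate 2 was higher in 69.3% of pairs.

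Regions seen in 1 replicate were weak with few exceptions. On 2L, 57 regions of replicate 1 had no counterpart in replicate 2, and their median score was 0.53 where that of shared regions was 0.68, a level 2 of them reached. In replicate 2 there were 202 without a counterpart, and their median was 0.44 where that of shared regions was 0.77, a level 5 of them reached. The strongest of the replicate 2 regions without a counterpart lay at 21463527 to 21464997 with a score of 1.53, and another at 21468416 to 21470054 scored 1.12. Both fell inside a main-set gap of 173 kb, at 21398685 to 21572021, and the nearest replicate 1 region was 64888 bp from the first of them.

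Of the 1383 combined-list regions on 2L, 899 (65.0%, Wilson interval 62.5% to 67.5%) overlapped both replicates, beside 61.6% over all sequences. Another 49 overlapped replicate 1 only, 192 overlapped replicate 2 only, and 243 (17.6%, interval 15.7% to 19.7%) overlapped neither, beside 20.9% over all sequences. The shares overlapping both replicates were 64.0% on 3L and 61.9% on 3R. Those in both replicates had a median score of 0.68, against 0.34 in each of the other 3 groups. The 243 regions without either replicate were narrow, at a median of 1255 bp, while no replicate list had a region under 1301 bp, a width that 136 of them did not reach.

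Few cases lay near the 1-bp overlap rule itself. In 27 main-set regions, however, under 50% of the width was overlapped in a replicate, and a 50% reciprocal overlap left 846 main-set regions. The smallest overlap of a main-set region with a replicate was 1301 bp, at 13538334 to 13540242, where the combined score was 0.30. That overlap equals the width of the narrowest replicate region. The nearest region outside the set, at 13490592 to 13492386, missed replicate 1 by 45 bp and replicate 2 by 73 bp and scored 0.29. Of the 484 combined-list regions of 2L outside the main set, 26 lay within 500 bp of both replicates.

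High scores on 2L were then set beside those of 3L and 3R. The 3 arms had similar median scores, with 0.67 ± 0.024 on 2L, 0.70 ± 0.021 on 3L and 0.69 ± 0.016 on 3R (SD, n = 2 each). They drew apart at the top of the distribution, where the 99th percentile was 1.36 ± 0.088 on 2L, 1.51 ± 0.10 on 3L and 1.50 ± 0.11 on 3R. Within each replicate 2L was lower. The difference 2L minus 3L was -0.14 in replicate 1 and -0.16 in replicate 2, and 2L minus 3R was -0.13 in replicate 1 and -0.15 in replicate 2. With 2 replicates an exact paired permutation test, two-sided, cannot give a p below 0.5, so no call is made.

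Of the 100 highest-scoring main-set regions on all sequences, 6 lay on 2L, 23 on 3L and 25 on 3R. The share of 6% on 2L has an exact 95% binomial interval of 2.23% to 12.6%, and 2L held 17.7% of all main-set regions. Of all main-set regions 3L held 19.4% and 3R held 23.4%. In replicate 1 the numbers among the top 100 were 5 on 2L, 20 on 3L and 25 on 3R, and in replicate 2 they were 9 on 2L, 19 on 3L and 24 on 3R. Counts on 2L were the lowest of the 3 arms in the top 100 of both replicate lists, although the interval treats regions as independent, which they are not. In the whole combined list the top 100 held 7 on 2L, 12 on 3L and 15 on 3R. There all 3 arms were below their shares of all regions, 16.8%, 18.7% and 23.3%. The top 10 of the combined list held 2 on 2L, 0 on 3L and 0 on 3R. Both of those 2L regions were in neither replicate.

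Further down the ranking the share of 2L came closer to its share of all regions. Among the 500 highest main-set regions, 65 (13.0%) lay on 2L, 84 (16.8%) on 3L and 112 (22.4%) on 3R. At or above the 90th percentile of the large arms, which 10.0% of their regions reach by definition, were 67 main-set regions of 2L (7.45%, Wilson interval 5.91% to 9.36%), 90 of 3L (9.14%, 7.49% to 11.1%) and 116 of 3R (9.76%, 8.20% to 11.6%). The intervals of the 3 arms overlap. In replicate 1 the shares were 7.75% on 2L, 8.95% on 3L and 9.48% on 3R, and in replicate 2 they were 7.61%, 9.31% and 9.52%. The X, with 13.6% in the main set, lay above all 3 arms.

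Among the lowest scores 2L was above its overall share in the main set and both replicates, but not in the combined list. When main-set regions of the large arms were divided into 10 equal groups by score, 2L supplied 24.0% of the lowest group (Wilson interval 20.5% to 28.0%) and 13.6% of the highest (10.8% to 16.9%), around its overall share of 18.2%. In replicate 1 the values were 21.3% in the lowest and 14.2% in the highest group, and in replicate 2 they were 22.2% and 13.8%. A lean towards low scores was not particular to 2L. In the main set 3L supplied 20.4% of the lowest and 18.2% of the highest group, around its share of 19.9%. There 3R supplied 26.1% and 23.5%, around 24.0%. In the lowest group of replicate 1, 3L had 20.4% (overall 19.5%) and 3R 27.9% (24.1%). In that of replicate 2, 3L had 23.7% (19.5%) and 3R 26.1% (24.2%). In the combined list 2L supplied 16.6% of the lowest group and 14.8% of the highest, around an overall share of 17.4%. Recovered input coverage was alike on the 3 arms, with 103 counts per kb of region on 2L, 103 on 3L and 103 on 3R in replicate 1, and 129, 129 and 128 in replicate 2. The recovery assumes a typical input density shared by these arms, so part of this likeness is by construction. Median widths also differed by less than the replicates did, at 2186 ± 66.5 bp on 2L, 2215 ± 48.1 bp on 3L and 2221 ± 64.7 bp on 3R.

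**Figure D5:**
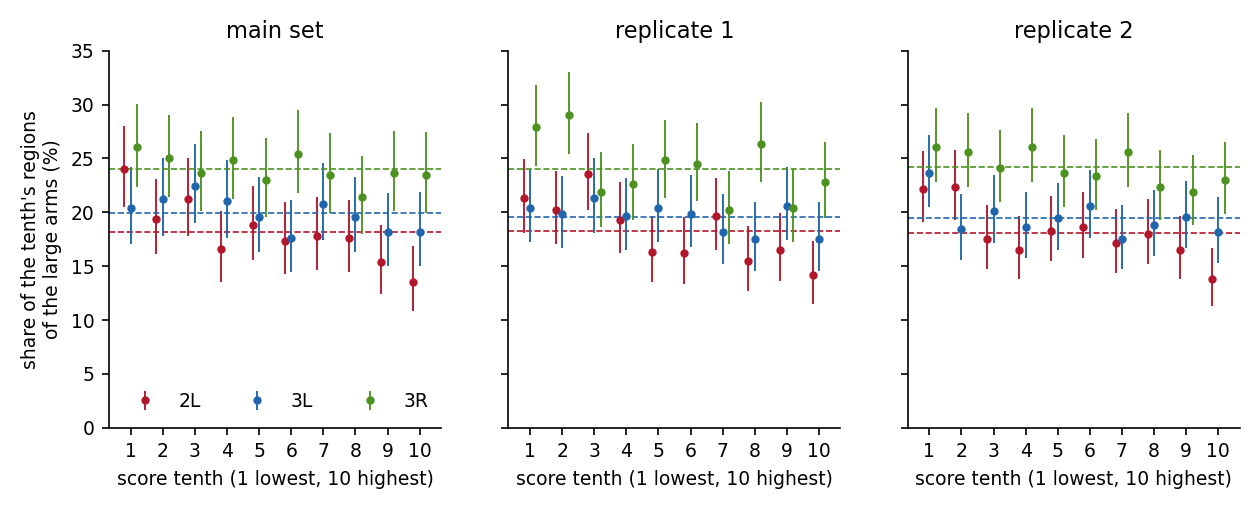
Share of the regions in each of 10 equal groups by score on the large arms that lie on 2L, 3L and 3R, in percent with 95% Wilson intervals, for the main set and each replicate. Dashed lines give each arm's share of all regions. Shares of 2L are above its line in the lowest group (24.0% in the main set) and below it in the highest (13.6%). Those of 3L and 3R are also above their lines in the lowest group and below them in the highest.

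The density of regions on 2L was close to that of 3L and below that of 3R. It was 45.9 ± 3.78 per Mb on 2L, 46.1 ± 4.06 on 3L and 50.2 ± 4.66 on 3R (SD, n = 2 each). The difference between 2L and 3L was within the replicate spread, at -0.074 per Mb in replicate 1 and -0.47 in replicate 2. Against 3R it was -3.68 and -4.93 per Mb, the same direction in both replicates, though the 2 arms' replicate ranges overlap. On 2L the telomeric side of the arm's middle held 528 main-set regions and the centromeric side 371. By complete windows, the first and second parts of 3L, in order of position, held 534 and 450. Those of 3R held 594 and 575, so 3L was uneven as well. The parts are unequal, from 49 windows on 3L and 55 on 3R. Complete windows leave out the end of an arm, so the parts of 3R do not hold all its 1188 regions. The first part of 3R is not to be read as its telomeric side.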

How the data were processed

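ChIP-seq was done on 2 ChIP and 2 input libraries of 14 to 16 h embryos. Reads were aligned with Bowtie 0.12.7, per the submitters' processing notes, and the coordinates belong to FlyBase r5, as per the file headers. The region caller, its threshold and the making of the combined list were details not given in the sources used here. The authors deposited 1 list per ChIP replicate and 1 combined list, with a score per region that behaves as log2 of a count ratio. Divided by 1 constant per list (0.885 in replicate 1, 0.927 in replicate 2, 0.908 in the combined list), the ratios were whole-number ratios for 100% of regions. ChIP was taken as numerator and input as denominator, which the files do not state. On simulated scores this recovery gave the exact counts for 93.9%, 93.7% and 93.2% of regions of the 3 lists. The simulation also gave these arms a single input density, so it cannot check counts where input varies by place. It used the same density for all 3 lists, while recovered input on 2L was 103 per kb in replicate 1 and 228 in the combined list. Total library depth is unknown, and only counts inside regions were used.

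Regions were assigned to windows by midpoint. The 200-kb stretch was moved in steps of 10 kb. Named are the 10 highest and 5 widest main-set regions, the 3 highest in the densest stretch, the 5 longest gaps, the largest replicate differences and the highest combined-list regions found in neither replicate. Regions shown beyond these, such as those seen in 1 replicate and the highest of each replicate list, were chosen after their values were seen. The members and lists were chosen with earlier results of these data known. No test over regions was made. Alternatives were stricter scores, merging, 50% reciprocal overlap, other windows and rankings, and dropping the overlap rule for 1 replicate at a time. Python 3.11.15, pandas 2.3.3, numpy 2.4.6, scipy 1.17.1 and matplotlib 3.10.9 were used.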

Additional observations from a re-analysis of the deposited data

Results flagged for a closer look

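The highest scores of 2L stood in combined-list regions that neither replicate list had, and so lie outside the main set. The region at 20009924 to 20010926 scored 3.67, a ratio of 14 to 1 in lowest terms, and was 1003 bp wide. The region at 11567524 to 11568524 scored 3.18, a ratio of 10 to 1, and lay in the second longest gap of the arm. The region at 5174586 to 5175586 scored 2.45, a ratio of 6 to 1. They are listed because they are signals outside the compared regions, and their low counts cannot be told apart from larger counts of the same ratio. The highest main-set score on 2L was 1.66.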

How the results depend on the processing

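No paired analysis was possible because no condition was compared, and each replicate number stands for 1 ChIP library and the input of that number. Keeping only scores at or above the list median gave 390 main-set regions on 2L (16.9 per Mb, 5.71% covered, median score 0.89, median width 2970 bp), 15 in the densest stretch and a longest gap of 519 kb. It also lowered the shares of regions found in the other replicate to 89.8% for replicate 1 and 76.7% for replicate 2, and the Spearman correlation of scores to 0.70. The whole combined list gave 1383 regions (60.1 per Mb, 14.8% covered, median score 0.52, median width 2235 bp) and a longest gap of 221 kb. A 50% reciprocal overlap gave shares of 89.2% and 79.4%. Among the 200 highest regions 2L held 10%, and in the other alternatives for the top ranks 6% to 8%. Windows of 200 kb ran up to 145 regions per Mb and down to 0, and windows of 1000 kb from 17.0 to 65.0 per Mb. The overlap rule was also dropped for 1 replicate at a time, with regions, widths and scores still those of the combined list. That gave 948 to 1091 regions, 41.2 to 47.4 per Mb and 11.8% to 13.1% covered. Median scores were then 0.61 to 0.66, median widths 2417 to 2526 bp, and the densest stretch held 29 to 33 regions. The cause of these shifts was not tested beyond the fewer or more regions each setting keeps by construction. Depth limits the order of regions whose scores lie within their counting error, and the labels do not say whether the replicates came from separate embryo collections.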
